A study of Danio rerio with 10 samples.

Results

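Zinc finger genes with a znf number were followed through the hours in which the zebrafish (Danio rerio) embryo replaces its maternal mRNA with its own. The group is formed by gene names that start with znf and a digit, in either case, and that collected 50 or more UMIs (unique molecular identifiers, counted as mRNA molecules) over all cells. It holds 104 of the 20920 genes of the deposited table, and 10123 genes reached 50 UMIs in all. A further 138 numbered znf genes had 1 to 49 UMIs and 11 had none. Total UMIs over all cells chose the members, so their abundance is a description, and the contrasts between stages and between cell types were not used to choose them. A gene can still reach 50 UMIs through the stage or type where it is high. This was so for znf750, with 136 of its 151 UMIs in the enveloping layer, and its differences are descriptions too.

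Embryos of the AB/TL strain received 20 mM 4sUTP at the 1-cell stage, an analogue of UTP that is built into RNA transcribed from then on. Their cells were captured by Drop-seq, and iodoacetamide (IAA, 10 mM) converted the 4sU, so that labelled copies read with T-to-C changes and count as zygotic, while unlabelled copies count as maternal. The 5 IAA libraries, each of cells pooled from many embryos, were 1 of dome (replicate B), 2 of 30% epiboly (A and B) and 2 of 50% epiboly (A and B), all with the same injection. The 5 untreated (NT) samples of the labels were not analysed here. Dome has a single library and no spread of its own, the label calls it replicate B while its cell names carry an A, and the study dissociated the first and the second epiboly replicates by different procedures. The first was deyolked by hand, while the second was treated much like dome, by shaking. The study reports a batch separation between these procedures. Differences from dome can therefore include the procedure, and its part was not tested.

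The libraries held 1855 cells at dome, 2420 and 632 at 30% epiboly (A and B) and 3068 and 251 at 50% epiboly (A and B). They had between 557065 UMIs in 50% epiboly replicate B and 8780804 in 50% epiboly replicate A, with medians of 2066 to 4087 UMIs per cell. Only 1 barcode occurred in more than 1 library. The smallest library, 50% epiboly replicate B, gave a median of 5 UMIs per znf gene and none for 17 of them. Levels are given as CPM, the UMIs of a gene per 1000000 UMIs of all genes, and the capture is at the 3′ end, so the levels are not corrected for length. Of the marker genes listed for the cell types, all 6 of the enveloping layer (EVL) and all 4 of the germ cells (PGC) were highest in the type of that name. For the other types this held for 3 of 3 markers in PrechordalPlate, 3 of 4 in NeuralEcto (sox3 was highest in NonNeuralEcto cells), 2 of 3 in VentralMargin, 2 of 4 in MuscleBlood and 1 of 3 in Notochord cells. The 3 non-neural ectoderm markers foxi1, tfap2a and bmp2b were all highest elsewhere (in SevenSleeper, EVL and EndodermB cells), and of the 3 yolk syncytial markers only mxtx2 was highest in YSLContam cells, at 9.84 CPM. The names of the deposited types are therefore used as labels.

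Most proteins with a znf name carry C2H2 zinc fingers, short loops held by a zinc ion that in series read a DNA sequence, and many act as transcriptional repressors or activators. A minority bind RNA, ribosomes or the spindle in place of DNA. Numbers below 1000 mostly follow human genes of the same number, whereas four-digit numbers were given to zebrafish genes without a named human counterpart, many of them near-identical neighbours. The 104 genes divide into 77 of the first kind and 27 of the second, out of 115 and 138 named genes of each kind. Reads of near-identical copies may have been split or lost in counting, the sources used here do not say how such reads were treated, and the study combined reads under a shared gene name. Values of single four-digit genes, and of names with a shared stem such as znf576.1 and znf576.2, are uncertain to that extent.

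Together the 104 genes held 144928 UMIs, 0.543% of all. The 3 most abundant took 39.0% of these. They were znf576.2 with 29293 UMIs, znf207a (in mammals BuGZ, a partner of the checkpoint protein Bub3 at kinetochores) with 14660, and znf346 (JAZ, which binds double-stranded RNA) with 12608. The next in order were znf395a, znf1035, znf609b, znf318, znf281b, znf706 and znf622, between 7131 and 3380 UMIs. At the other end 27 genes had fewer than 100 UMIs, and the lowest inside the limit were ZNF335 and znf1183 with 51 UMIs each. The median gene had 300.5 UMIs. It was 124 among four-digit genes and 450 among those below 1000, and znf1035 alone supplied 46.9% of the four-digit UMIs.

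The first question was how much of this mRNA was maternal at each stage. The summed level was 5969.98 CPM at dome, 5602 and 5492 CPM at 30% epiboly, and 4926 and 3901 CPM at 50% epiboly. Unlabelled RNA was 5129 CPM at dome, 3884 and 3545 CPM at 30% epiboly, and 3012 and 2329 CPM at 50% epiboly. Labelled RNA was 841 CPM at dome, 1718 and 1946 CPM at 30% epiboly, and 1914 and 1572 CPM at 50% epiboly. Every epiboly library lay below dome in unlabelled and above it in labelled CPM, so that the labelled share was 14.1% at dome (95% Wilson interval 13.8% to 14.4%), 30.7% and 35.4% at 30% epiboly, and 38.9% and 40.3% at 50% epiboly. These intervals cover counting error only. With 2 libraries a stage no exact test can pass the threshold, and none was made. Over all genes with 50 or more UMIs the shares were 12.3%, 31.5%, 29.7%, 42.6% and 32.4% in the same order of libraries.

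The estimate of the labelled share depends on how many UMIs a gene has in a cell, and 39.6% of the UMIs of znf genes lay in gene-cell pairs with exactly 1 UMI, against 25.5% over all genes. Shares were therefore compared at pairs with exactly 1 UMI. There, four-digit genes had 37.1% labelled at dome, 51.4% and 59.2% at 30% epiboly, and 52.6% and 65.0% at 50% epiboly. Genes numbered below 1000 had 14.3%, 29.1%, 36.7%, 36.3% and 41.1%, and all genes had 9.83%, 20.5%, 23.3%, 26.2% and 28.5%. In every library the four-digit genes lay above those below 1000, and both lay above all genes. For scale, 9 known zygotic genes (tbxta, gsc and krt8 among them) read 61.6% to 72.1% by the same measure, 7 known maternal genes 0.717% to 1.99%, and the injected unlabelled mRNAs 0% to 0.971%. Without znf1035 the four-digit genes had 48.8% at dome and 54.3% to 67.3% in the epiboly libraries.

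**Figure D1:**
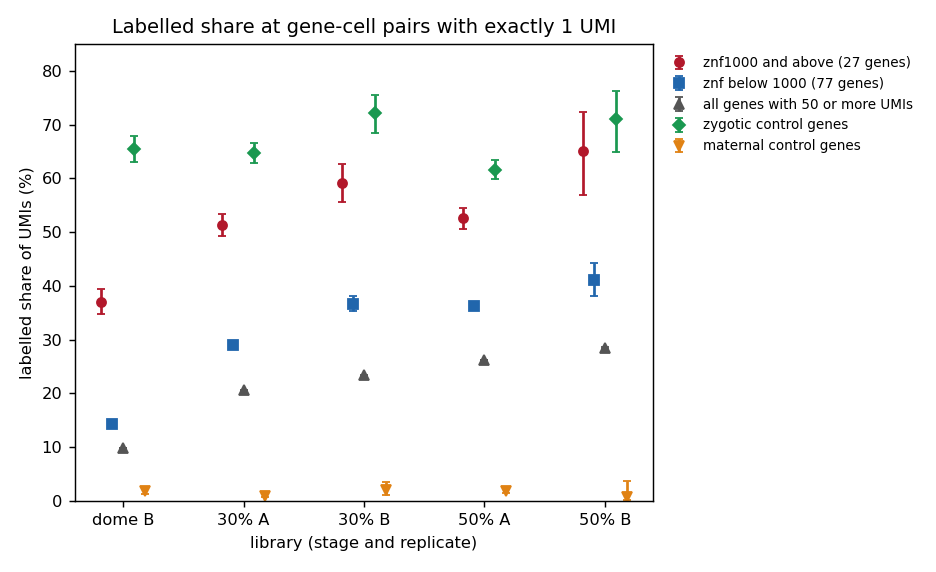
Labelled share of UMIs (%, y axis) at gene-cell pairs with exactly 1 UMI in each of the 5 libraries (x axis), with 95% Wilson intervals. Red circles (27 four-digit znf genes) lie between 37.1% and 65.0%, above blue squares (77 znf genes below 1000, 14.3% to 41.1%) and grey triangles (all genes, 9.83% to 28.5%), and green diamonds and orange triangles are the zygotic and maternal control genes.

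Gene by gene, the median labelled share over all libraries was 38.9% for the 104 znf genes, 54.4% for the four-digit genes and 32.7% for those below 1000, against 16.7% over the 10123 genes. A share of 50% or more was reached by 33 of 104 znf genes (31.7%), where 15.9% of all genes reached it. Of these, 17 were among the 27 four-digit genes and 16 among the 77 below 1000. Shares under 5% were found for 7 znf genes (6.73%), where 23.6% of all genes were that low. Among genes with 200 or more UMIs the highest shares belonged to znf185 (78.9%), znf1174.1 (74.1%), znf1004 (73.0%), znf703 (65.5%) and znf16l (64.7%). The lowest belonged to znf76 (0.966%), a relative of the snRNA gene activator znf143, znf326 (1.59%), znf653 (1.97%), znf207a (3.81%) and znf609a (6.09%). The value of znf185 rests on cells with several copies, since at pairs with exactly 1 UMI its share was 34.6%, while znf703 had 60.3% and znf1174.1 72.7% there.

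Zebrafish keep pairs of genes from a genome duplication, and 11 numbers were present with both a letter a and a letter b. In 3 of the 11 the labelled shares of the copies differed by more than 20 percentage points. The copies of znf292 had 58.5% (a) and 21.5% (b), those of znf395 34.8% (a) and 9.13% (b), and those of znf207 3.81% (a) and 27.8% (b). By contrast the copies of znf800 had 48.5% (a) and 48.6% (b), and those of znf513 had 36.1% (a) and 36.9% (b). The level of znf292a was 40.9 CPM at dome, 81.2 and 63.0 CPM at 30% epiboly, and 83.9 and 28.7 CPM at 50% epiboly. That of znf292b was 81.6, 60.8, 63.3, 36.9 and 10.8 CPM in the same libraries. The abundant copy was the less labelled one for znf207 and the more labelled one for znf395, so the order of the copies in abundance did not give their order in label.

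**Figure D2:**
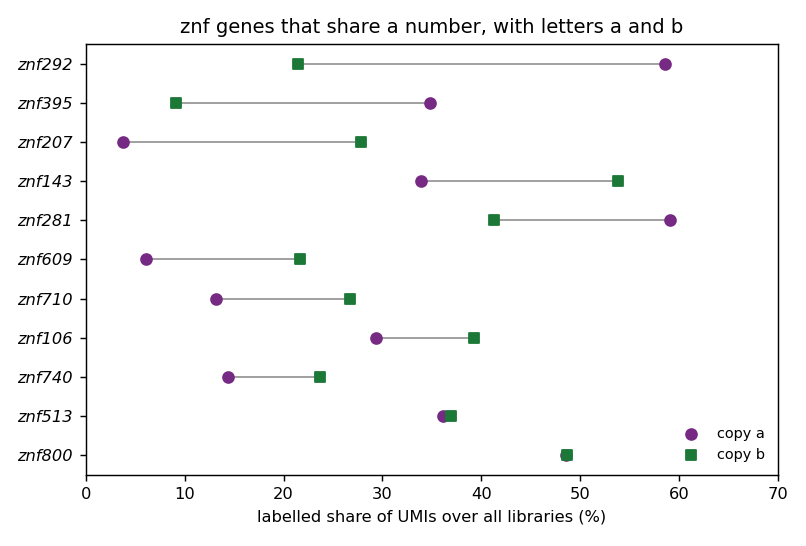
Labelled share of UMIs over all libraries (%, x axis) for the 11 znf numbers (y axis) held by a copy a (purple circles) and a copy b (green squares), joined by a line. The widest gap is that of znf292 (58.5% and 21.5%), and the copies of znf800 and znf513 lie within 1 point of each other. Shares cover pairs with 1 or more UMIs, and no intervals are drawn.

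Stages were then compared gene by gene with edgeR's quasi-likelihood test over all genes, with adjusted p-values by Benjamini-Hochberg and a threshold of 0.05. All 104 znf genes passed the filter on low counts for total UMIs, 92 for labelled and 102 for unlabelled UMIs. A gene may pass it through the stage where it is high, and the spread of dome is taken from the other stages. The log2 fold changes include TMM scaling, which adds to the differences from dome that the CPM values show: the median of all genes between 50% epiboly and dome was -0.09 with TMM and -0.56 without it. With TMM the median of the 104 znf genes was 0.28, that of the 27 four-digit genes 0.96 and that of the 77 below 1000 0.11. Without TMM these medians were -0.18, 0.47 and -0.37, so the sign for all znf genes and for those below 1000 depends on the scaling, while both groups and the four-digit genes lay above the median of all genes in either case. In CPM, all 4 epiboly libraries were above dome for 23 of 104 znf genes (22.1%, where 16.8% of all genes were), 12 of them four-digit. They were all below dome for 31 (29.8%, where 47.2% of all genes were), 2 of them four-digit.

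In total UMIs 4 of 104 znf genes changed between 50% epiboly and dome, where 7.95% of all genes did. Higher at 50% epiboly were 3 of them, znf703, znf185 and znf750 (5.69% of all genes were higher), and 1, znf326, was lower (2.26% of all genes were). Here and below znf750 is counted as a description, since it reached the 50-UMI limit only through EVL cells. Without TMM the balance turned, with 3 znf genes higher and 12 lower, and 605 higher and 1531 lower over all genes. At an unadjusted p below 0.05 there were 26 of 104 (27.1% of all genes were), 15 of them higher (14.9% of all genes). Between 30% epiboly and dome only znf750 passed (1 of 104, where 0.321% of all genes did, and 2 of 104 with the replicate number as a block). Between 50% and 30% epiboly no znf gene and no other gene passed in edgeR or DESeq2. At an unadjusted p below 0.05 in edgeR there were 2 of 104 znf genes, where 5.77% of all genes were.

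The 3 most abundant genes did not pass between stages. The level of znf576.2 was 1172 CPM at dome, 1076 and 1253 CPM at 30% epiboly, and 1018 and 859.9 CPM at 50% epiboly (0.13 on the log2 scale between 50% epiboly and dome, edgeR adjusted p = 0.85). That of znf207a was 588 CPM at dome, 503 and 617 CPM at 30% epiboly, and 533 and 524 CPM at 50% epiboly (0.29, adjusted p = 0.651). For znf346 the values were 425 CPM at dome, 536 and 405 CPM at 30% epiboly, and 498 and 267 CPM at 50% epiboly (0.32, adjusted p = 0.66). In all 3 the ranges of the stages overlap or lie close together, and znf576.2 stood first in every library.

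The genes that were higher include transcription factors of restricted domains. In zebrafish znf703 is also called nlz1 and belongs with znf503 (nlz2) to the NET family, repressors that bind Groucho and act in the hindbrain and eye. Its level was 2.96 CPM at dome, 12.0 and 21.2 CPM at 30% epiboly, and 20.8 and 23.3 CPM at 50% epiboly. All 4 epiboly libraries were above dome, and the difference of 50% epiboly from dome was 3.32 on the log2 scale (SE 0.667, edgeR adjusted p = 0.00962). Both portions were higher, labelled UMIs by 3.73 (SE 0.843, adjusted p = 0.0124) and unlabelled UMIs by 2.73 (SE 0.888, adjusted p = 0.0423). The unlabelled level was 1.35 CPM at dome, 4.16 and 5.14 CPM at 30% epiboly, and 8.04 and 1.80 CPM at 50% epiboly. Of the 50% epiboly libraries replicate A was high and replicate B close to dome. Without replicate A the unlabelled difference was 0.86 and not called, as it also was not with either 30% epiboly replicate left out (2.70 without A and 2.73 without B) or with the replicate number as a block (2.54). Copies with label that the estimate does not recognise are counted as unlabelled.

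For znf185, whose protein carries a LIM domain and binds actin, the level was 4.84 CPM at dome, 35.0 and 21.2 CPM at 30% epiboly, and 32.1 and 3.59 CPM at 50% epiboly. The groups overlap, because 50% epiboly replicate B lay below dome. The difference was 2.66 (SE 0.787, adjusted p = 0.0467) in total and 3.92 (SE 1.03, adjusted p = 0.0152) in labelled UMIs. Without 50% epiboly replicate A the differences were 0.03 and 0.60, neither of them called, and with the replicate number as a block the total difference was 1.54 and not called. The number of EVL cells also differed between libraries. It was 92 of 1855 at dome, 143 of 2420 and 23 of 632 at 30% epiboly, and 114 of 3068 and 3 of 251 at 50% epiboly. In sums over a library fewer cells of a type and less RNA per cell cannot be told apart, and the part of the cell numbers in this difference was not tested. znf185 stands in a list of EVL genes that the study chose on these samples and is no independent evidence of that list.

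The epidermal differentiation factor znf750 (so known in human) had 1 UMI at dome, 57 and 24 at 30% epiboly, and 69 and 0 at 50% epiboly. The ratio of summed CPM of 50% epiboly over dome was 54.9 with an exact counting interval of 9.53 to 2199.7, which covers counting error only. Its fitted difference at 50% epiboly (5.71, SE 1.23, adjusted p = 0.0129) depends on the prior count for that reason, and the same holds for 30% epiboly (5.89, SE 1.22, adjusted p = 0.045).

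**Figure D3:**
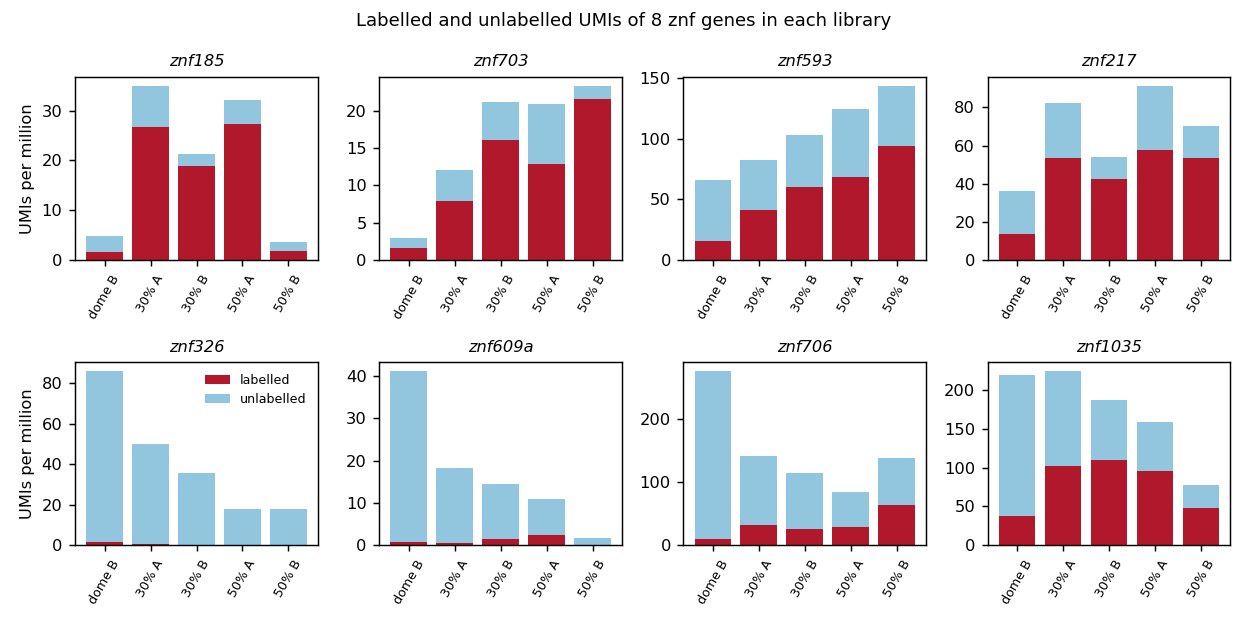
Labelled (red) and unlabelled (blue) CPM (y axis, from 0, with its own scale in each panel) of 8 znf genes in the 5 libraries (x axis), stacked to the total. In the upper row znf703 has 2.96 CPM at dome and 12.0 to 23.3 CPM in the epiboly libraries, and in the lower row znf326 has 85.9 CPM at dome and 17.8 to 50.1 CPM in the epiboly libraries, nearly all of it unlabelled.

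The single znf gene called lower in total UMIs in the fit with TMM was znf326. In human it codes for a part of the DBIRD complex, which links RNA polymerase II to mRNP particles. Its level was 85.9 CPM at dome, 50.1 and 35.6 CPM at 30% epiboly, and 17.8 and 17.95 CPM at 50% epiboly. Each stage lay below the one before it with no overlap. The difference of 50% epiboly from dome was -1.80 (SE 0.475, adjusted p = 0.0302) in total and also -1.80 (SE 0.525, adjusted p = 0.0252) in unlabelled UMIs, since labelled UMIs stayed at or under 1.52 CPM in every library. The total call was lost without 30% epiboly replicate A (-1.79, adjusted p = 0.0625) and without replicate B (-1.78, adjusted p = 0.065), with the size almost the same. This gene also comes from a list that the study chose on these samples.

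In unlabelled UMIs 8 of 102 znf genes changed between 50% epiboly and dome, where 7.38% of all genes did. Lower were 6 (4.82% of all genes) and higher 2 (2.57% of all genes). Besides znf326 the lower ones were znf609a (-2.05, SE 0.596, adjusted p = 0.0249), znf706 (-1.63), znf1035 (-1.41), znf280d (-1.41) and znf609b (-1.39), the last 4 with adjusted p of 0.0142 to 0.0414. The unlabelled level of znf609a was 40.4 CPM at dome, 17.9 and 13.0 CPM at 30% epiboly, and 8.56 and 1.80 CPM at 50% epiboly. That of znf706 was 267 CPM at dome, 111 and 89.0 CPM at 30% epiboly, and 54.8 and 74.8 CPM at 50% epiboly. The groups did not overlap for either gene. All 6 were lost without 30% epiboly replicate A, and again without replicate B, with differences between -1.37 and -2.10. Without 50% epiboly replicate A the difference of znf609a was -4.02 and still called, while znf326 (-1.77), znf280d (-1.37) and znf706 (-1.37) were lost, and without replicate B znf1035 (-1.01) and znf609b (-1.05). The medians were -0.14 over the znf genes, 0.59 over the four-digit genes and -0.39 over those below 1000, against -0.46 over all genes, and without TMM they were -0.62, 0.11 and -0.87, against -0.93. Higher were znf703, as above, and znf750, whose 17.4 estimated unlabelled UMIs at 50% epiboly stand against 0 at dome (at least 4.63-fold higher, with the dome library set at 3 UMIs). The unlabelled call of znf750 was lost without either 30% epiboly replicate and with the replicate number as a block.

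Labelled UMIs rose between dome and 50% epiboly for 23 of 92 znf genes, where 37.6% of all genes tested rose, and none fell (0.116% of all genes did, and 37.7% changed in either direction). The median difference was 1.53 over the znf genes and 1.89 over all genes (1.07 and 1.43 without TMM). Of the 23, 20 were numbered below 1000 (67 tested) and 3 were four-digit genes (25 tested), namely znf1156, znf1007 and znf1154.2. Four-digit genes had fewer UMIs (median 124 against 450), so these counts are no contrast between the groups. After znf750 and znf185 the largest of these differences were those of znf507 (3.91, on 1 labelled UMI at dome), znf703 (3.73), znf207b (3.31), znf1156 (2.94), znf593 (2.80) and znf800b (2.79). With 1 labelled UMI at dome znf507 passed the filter on low counts only through the epiboly libraries, so its difference is a description. The gene znf593, whose product acts in maturation of the large ribosomal subunit, had 15.7 labelled CPM at dome, 41.0 and 60.5 at 30% epiboly, and 68.3 and 94.3 at 50% epiboly, with no overlap of the stages. Its unlabelled CPM was 50.1, 41.7, 42.5, 56.1 and 49.3 in the same libraries, and its total missed the threshold (1.46, adjusted p = 0.0534). A near miss of the same kind was znf217 (a partner of corepressor complexes in human), with 36.3 total CPM at dome, 82.5 and 54.1 at 30% epiboly, and 91.3 and 70.01 at 50% epiboly (1.63, adjusted p = 0.0522).

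With each library left out in turn 10 of the 23 were kept, namely znf703, znf593, znf800b, znf207a, znf706, znf217, znf330, znf740a, znf1007 and znf750 (the last without a value when 50% epiboly replicate A was left out). Another 11 were lost without 50% epiboly replicate A: znf185 (0.60), znf207b (0.72), znf292a (1.06), znf1156 (1.48), znf318 (1.48), znf346 (1.5), znf143b (1.68), znf16l (1.94), znf1154.2 (2.15), znf740b (2.43) and znf507 (4.91). Without 30% epiboly replicate A znf318 (1.68), znf770 (1.76), znf865 (1.76) and znf507 (3.82) were lost, and without replicate B znf318 (1.69). With the replicate number as a block 22 znf genes passed, and znf292a (1.45), znf143b (1.41), znf346 (1.60), znf1156 (1.94) and znf740b (1.89) were lost. All UMIs of znf750 at 50% epiboly came from replicate A, so its place among the 10 genes kept is a description.

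For 20 of the 23 genes with more labelled RNA the total did not pass the test. One of these, znf706, passed in both portions in opposite directions, with labelled UMIs 2.66 higher (SE 0.705, adjusted p = 0.0153) and unlabelled UMIs 1.63 lower (SE 0.433, adjusted p = 0.0142) at 50% epiboly, and a total difference of -0.92 (adjusted p = 0.158). Of 90 genes tested in both portions, 38 had a higher labelled and a lower unlabelled estimate, 45 were higher in both and 7 had a lower labelled estimate. Between 30% epiboly and dome no labelled difference passed among znf genes or all genes, although 33 of 92 znf genes and 40.1% of all genes had an unadjusted p below 0.05. With the replicate number as a block 16 of the 92 passed, all higher at 30% epiboly. The block counts dome as replicate B, and these calls depend on that letter. The share of all genes that passed with this block is not given here, so the count is no result about the znf genes. In the fit without a block 93.7% of all genes and 94.6% of the znf genes had a higher labelled estimate at 30% epiboly. No unlabelled difference of a znf gene passed there either, where 0.0617% of all genes did, with 7 of 102 at an unadjusted p below 0.05 (9.55% of all genes). Between 50% and 30% epiboly there was none in either portion. At an unadjusted p below 0.05 there were 0 labelled and 3 unlabelled znf genes, where 5.33% and 5.32% of all genes were.

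**Figure D4:**
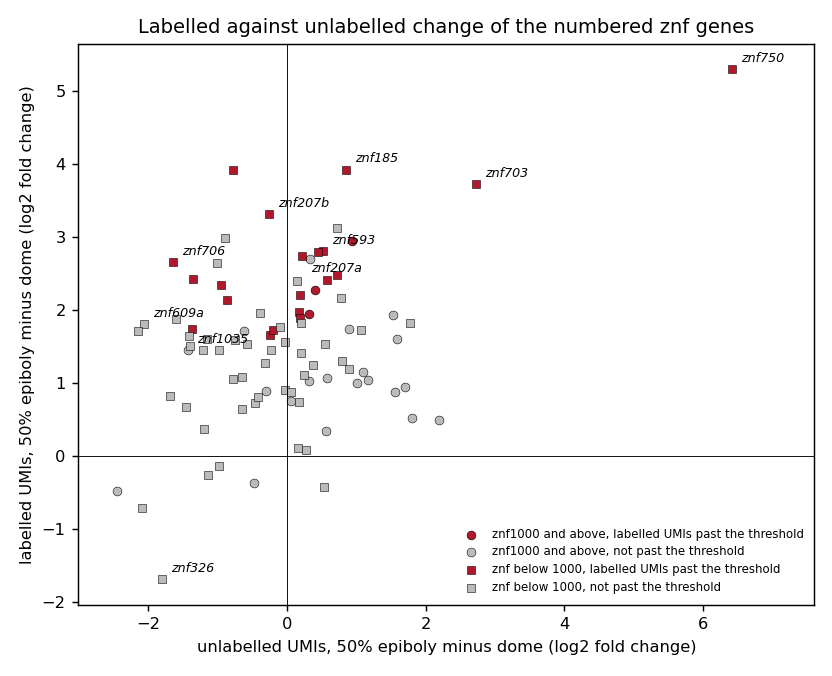
Difference of 50% epiboly from dome (log2 fold change) in unlabelled UMIs (x axis) and labelled UMIs (y axis) for 90 znf genes tested in both, circles for four-digit genes, squares for genes below 1000, red where the labelled difference passed the threshold. Most points lie above 0 on the y axis (45 to the right and 38 to the left of 0 on the x axis), and znf750, whose dome value is 1 UMI, lies at the far upper right.

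By role, genes for RNA binding and ribosomes (8 members) had a median labelled share of 19.5%. In this list 3 rose in labelled UMIs between dome and 50% epiboly (znf593, znf330 and znf346), a share like that of all genes (37.6%). Of the 8, znf326 alone was called lower, in total and unlabelled UMIs, where 2.26% and 4.82% of all genes were. The collided-ribosome ubiquitin ligase gene znf598 had 34.9 CPM at dome, 17.2 and 18.1 at 30% epiboly, and 8.88 and 8.98 at 50% epiboly (-1.49, adjusted p = 0.0795), and znf622, a 60S maturation factor, had 196 CPM at dome, 127 and 145 at 30% epiboly, and 64.2 and 95.1 at 50% epiboly (-0.90, adjusted p = 0.169). Both showed stages without overlap but did not pass. Of the 2 mitotic genes tested in labelled UMIs, znf207a and znf207b, both rose (2.74 and 3.31), where 37.6% of all genes did. The count of 2 is too small for a result about mitotic genes, and znf207b was not called without 50% epiboly replicate A (0.72). At 50% epiboly znf207a kept 498 and 501 unlabelled CPM, against 582.2 CPM at dome. Among 22 conserved transcription factor genes the median share was 32.9%, and 4 of 18 rose in labelled UMIs (37.6% of all genes did). In total 2 of 22 rose, znf703 and znf750 (5.69% of all genes did). Both counts include znf750, whose differences are descriptions, so neither is a result about this list. Unlabelled UMIs of znf609a and znf609b fell (2 of 22, where 4.82% of all genes did). Of the 6 most abundant four-digit genes znf1007, znf1154.2 and znf1156 rose in labelled UMIs (37.6% of all genes did). They were the only 3 of the 25 four-digit genes tested that did. znf1035 fell in unlabelled UMIs (4.82% of all genes did), and znf1041 and znf1004 passed in none. The total level of znf1004 was 40.8 CPM at dome, 70.6 and 43.5 at 30% epiboly, and 39.9 and 37.7 at 50% epiboly, with 30.0 labelled CPM already at dome.

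Cell types were compared within libraries, each deposited type against all other cells of the same library, with the library as a block. The types were clustered by the authors from the same counts, so these p-values are descriptions and no independent test. Over 15 types, 39 of 878 pairs of a znf gene and a type passed in total UMIs (4.44%, where 5.99% of all pairs of a gene and a type did), 15 higher and 24 lower. In labelled UMIs 17 of 548 passed (3.10%, where 7.72% of all did), and in unlabelled UMIs 20 of 696 (2.87%, where 3.77% did). In each kind the share lay below that of all genes. The 15 higher and 24 lower total differences were 1.71% and 2.73% of the pairs, where 2.54% and 3.46% of all pairs were higher and lower. With each library left out in turn, 13 of the 35 total calls in types with more than 2 libraries were kept in each fit where they could be tested: those of znf185 in EVL, Dome and Unspecified_30 cells, those of znf703 in all 6 types where it passed, and those of znf503 in MuscleBlood, YSLContam, NeuralEcto and Dome cells. The calls of znf185 in Dome and Unspecified_30 cells are not separate from its EVL call, because EVL cells are among the other cells there. Likewise the lower calls of znf703 and znf503 are not separate from their higher calls. VentralMargin and MuscleBlood cells, among the other cells of those fits, held 44.0% and 15.4% of the znf703 UMIs and 23.9% and 18.9% of the znf503 UMIs. No znf gene passed in total UMIs in EndodermA (0 of 31) or EndodermB cells (0 of 83), where 4.18% and 1.93% of all genes did. EndodermB cells were tested only in 30% epiboly replicate A (25 cells) and 50% epiboly replicate A (10 cells). The absence of calls there is no sign of equal levels.

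In EVL cells, the outer epithelium of the embryo, znf185 had 71.0 CPM at dome, 492 and 491 at 30% epiboly, and 678 in 50% epiboly replicate A. In the other cells of these libraries it had 1.55, 4.43, 1.78 and 4.98 CPM. The difference was 7.11 (SE 0.252, edgeR adjusted p = 2.56e-11, higher in 4 of 4 libraries) in total, 8.93 in labelled and 4.53 in unlabelled UMIs. In either portion znf185 passed the filter on low counts here but not in Dome, NeuralEcto or VentralMargin cells. It may have passed through the EVL cells, so the labelled and unlabelled differences are descriptions. Of its 626 UMIs, 538 (85.9%) came from 375 EVL cells, 4.56% of all cells. For znf750 the EVL had 0 UMIs in 92 cells at dome, which allows up to 3 UMIs, and 51, 22 and 63 UMIs in the 3 epiboly libraries with enough EVL cells, 117, 190 and 178 CPM, against 0.917, 0.713 and 0.712 CPM in the other cells. This gene did not pass the filter on low counts in the EVL fit and has no test there, and 136 of its 151 UMIs (90.1%) were from EVL cells. It reached the 50-UMI limit of the group only through these cells, so this share is a description. Within the EVL both genes were thus higher in these 3 epiboly libraries than at dome, and 50% epiboly replicate B, with 3 EVL cells, gave no value.

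A smaller EVL difference was that of znf710a. Its total was 51.1, 25.2, 8.62 and 17.0 CPM in EVL cells, against 19.2, 8.71, 7.84 and 3.20 CPM in the other cells of the same libraries (1.71, SE 0.382, adjusted p = 0.00843, and 1.68 and not called without 30% epiboly replicate A). In labelled UMIs the difference was 4.93 (SE 0.679, edgeR adjusted p = 1.05e-06). For labelled UMIs znf710a passed the filter on low counts here but not in Dome, NeuralEcto or VentralMargin cells. It may have passed through the EVL cells, where it is high, so its labelled difference is a description. The 36 UMIs of znf710a in EVL cells are labelled and unlabelled together, so the labelled fit rests on fewer. Both differences were higher in 4 of 4 libraries, though in 30% epiboly replicate B the totals were close (8.62 against 7.84 CPM). In all, 6 of 61 znf genes passed in EVL total UMIs, where 10.6% of all genes did. Higher were also znf143b (1.28) and znf207a (0.33), and lower were znf622 (-0.67) and znf280d (-0.67). These 4 calls were each lost without 30% epiboly replicate A (0.95, 0.33, -0.56 and -0.58) and without 50% epiboly replicate A (1.36, 0.32, -0.68 and -0.69), and the first 2 also without 30% epiboly replicate B (1.23 and 0.20) and without TMM (1.07 and 0.13). In labelled UMIs 3 of 39 passed, where 16.2% of all genes did, the last being znf1004 (0.96, lost without any of the 4 libraries, with 0.63 to 1.24). In unlabelled UMIs 7 of 49 passed, where 8.95% of all genes did. Of these znf622 (-0.89) and znf185 were kept with each library left out, and znf207a, znf280d, znf1035, znf395a and znf576.2 were not.

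The NET family genes were high in VentralMargin and MuscleBlood cells, and znf503 also in YSLContam cells. The margin is the ring of cells that becomes mesoderm and endoderm. In Notochord cells znf703 was not called (0.85, edgeR adjusted p = 0.0762). Neither gene passed the filter on low counts in PrechordalPlate or EndodermA cells. In VentralMargin cells znf703 had 22.1 CPM at dome, 43.1 and 67.6 at 30% epiboly, and 55.3 and 75.6 at 50% epiboly. In the other cells it had 2.36, 7.54, 13.2, 14.0 and 11.1 CPM (2.35, SE 0.216, adjusted p = 2.79e-08, higher in 5 of 5 libraries). The labelled difference was 2.42 and no unlabelled difference passed. With znf503 these were 2 of 56 znf genes that passed there, where 4.91% of all genes did. The dome value rests on 5 UMIs, and VentralMargin cells were 59 of 1855 at dome, 331 of 2420 and 91 of 632 at 30% epiboly, and 497 of 3068 and 49 of 251 at 50% epiboly. The part of this share in the stage difference of znf703 was not tested. In MuscleBlood cells, where 3 of 44 znf genes and 5.94% of all genes passed, znf703 was also higher (1.53, adjusted p = 8.55e-06), in 3 of 5 libraries, with 0 UMIs in 5 cells at dome and in 12 cells of 50% epiboly replicate B.

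Its relative znf503 was higher in VentralMargin (1.40, adjusted p = 0.00362), MuscleBlood (2.30, adjusted p = 3.42e-11) and YSLContam cells (2.46, adjusted p = 1.82e-07). In YSLContam cells (2 of 61 znf genes, 5.44% of all genes) it had 55.5 CPM at dome, 29.5 and 71.3 at 30% epiboly, and 58.4 in 50% epiboly replicate A, against 8.30, 7.42, 11.2 and 11.2 CPM in the other cells, on 3 to 18 UMIs a library. In MuscleBlood cells it had 0 CPM at dome, 44.6 and 74.2 at 30% epiboly, and 36.5 and 33.3 at 50% epiboly, against 10.4, 6.39, 9.69, 9.08 and 15.2 CPM in the other cells. In VentralMargin cells it had 35.4, 18.2, 21.0, 18.7 and 66.1 CPM, against 9.58, 6.23, 11.2, 10.4 and 4.43 CPM in the other cells, and so was higher in all 5 libraries. Without 30% epiboly replicate A the VentralMargin difference was 1.34 and not called, and against cells matched in pseudotime it was 0.80 and not called. Both genes were lower in neural ectoderm, where 6 of 61 znf genes and 14.9% of all genes passed. There znf703 had 0, 1.87, 0, 5.65 and 11.8 CPM, against 3.02, 13.9, 23.9, 26.8 and 28.4 CPM in the other cells (-2.32, adjusted p = 9.13e-06), and znf503 had 7 UMIs in all (-2.93, adjusted p = 3.29e-05). znf703 was also lower in NonNeuralEcto cells (-3.12, 1 of 52 znf genes and 3.12% of all genes passed), in Unspecified_30 cells (-3.25, 2 of 76 and 2.18%) and in Dome cells (-2.89, 7 of 63 and 11.2%). znf185 was lower in Unspecified_30 cells (-3.67, on 10 UMIs there) and in Dome cells (-2.73) too. The other cells of these fits include the EVL cells, which held 538 of its 626 UMIs. These lower values therefore largely restate its high level in the EVL.

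**Figure D5:**
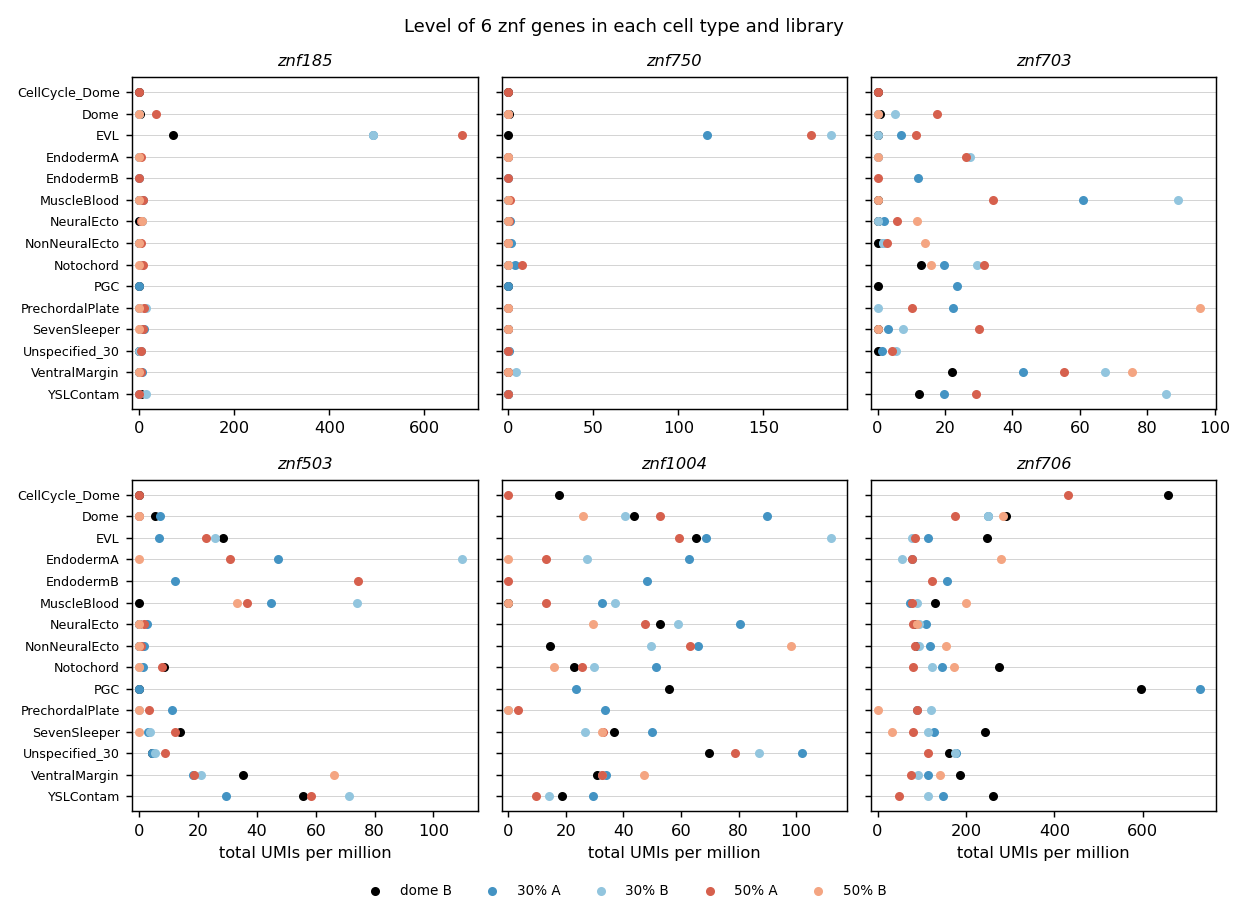
Total CPM (x axis, from 0, with its own scale in each panel) of 6 znf genes in the deposited cell types (y axis), 1 point for each library with 5 or more cells of the type, coloured by library. The points of znf185 and znf750 stand apart in the EVL (up to 678 and 190 CPM). Those of znf703 and znf503 are high in VentralMargin and MuscleBlood cells, and those of znf503 also in YSLContam cells. The low points of znf1004 in PrechordalPlate cells rest on 4 UMIs in all.

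The four-digit gene znf1004 was lower in 4 types, in PrechordalPlate (-2.45, adjusted p = 0.000848), MuscleBlood (-1.32, adjusted p = 0.000814), YSLContam (-1.41, adjusted p = 0.0196) and Notochord cells (-0.69, adjusted p = 0.0137). In PrechordalPlate cells 3 of 33 znf genes and 8.64% of all genes passed, and in Notochord cells 2 of 45 and 5.32%. The level of znf1004 was 33.5, 0, 3.42 and 0 CPM in PrechordalPlate cells of the 4 epiboly libraries, against 71.1, 44.6, 41.1 and 38.4 CPM in the other cells. These PrechordalPlate values rest on 4 UMIs in all, in 27, 16, 92 and 5 cells, so the values of 0 come from few cells. Without 50% epiboly replicate A the PrechordalPlate difference was -1.72 and the MuscleBlood difference -0.95, neither called. The YSLContam difference (-1.29 to -1.62) was lost without any of its 4 libraries, and the Notochord difference without dome replicate B (-0.61) and without 30% epiboly replicate A (-0.82). In PrechordalPlate cells znf800a was lower as well (-1.71, adjusted p = 0.000265, and -1.48 and not called without 50% epiboly replicate A). Neural ectoderm held more of znf800b (0.70), znf1041 (0.83), znf593 (0.48) and znf800a (0.38), with adjusted p of 0.00253 to 0.0231. Of these znf800b was lost without 30% epiboly replicate A (0.65), znf1041 and znf593 without 50% epiboly replicate A (0.75 and 0.52), and znf800a without either (0.44 and 0.32). znf593 had 92.4 CPM there at dome, 90.7 and 167 at 30% epiboly, and 148 and 165 at 50% epiboly, against 65.3, 81.2, 95.03, 115 and 134 CPM in the other cells. In SevenSleeper cells znf800b was lower (-1.06, adjusted p = 0.011, 1 of 40 znf genes and 4% of all genes), but not without 30% epiboly replicate A (-1.01), 30% epiboly replicate B (-0.92) or 50% epiboly replicate A (-1.23). The most abundant gene, znf576.2, stands in a list of NonNeuralEcto genes that the study chose on these samples and did not pass there in any kind of UMIs.

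Dome cells held more unlabelled RNA of znf706 and znf395a. There znf706 had 290.2 CPM at dome, 249 and 249 at 30% epiboly, and 176 and 284 at 50% epiboly, against 254, 140.2, 105, 83.3 and 127 CPM in the other cells. Unlabelled UMIs of znf706 were 0.83 higher there (SE 0.174, adjusted p = 0.000191) and those of znf395a 0.70 higher (adjusted p = 0.000617), while labelled UMIs of znf609b (-1.64), znf318 (-1.32), znf292a (-1.36) and znf593 (-1.09) were lower. In labelled UMIs 5 of 38 znf genes and 32.8% of all genes passed, and in unlabelled UMIs 2 of 48 and 4.78%. Without 30% epiboly replicate B the unlabelled differences were 0.60 and 0.58 and the labelled ones -1.28, -1.17, -1.18 and -1.14, none called, and without replicate A znf395a (0.61), znf292a (-1.24) and znf593 (-1.17) were lost as well. The labelled difference of znf593 was also lost without dome replicate B (-1.13) and without 50% epiboly replicate B (-0.94). Against cells matched in pseudotime the unlabelled differences were 0.28 for znf706 and 0.34 for znf395a, not called.

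CellCycle_Dome cells (30 at dome and 6 in 50% epiboly replicate A) had only 2.02% and 1.58% of znf UMIs labelled, and 2.43% and 2.50% over all genes. In total UMIs 4 of 85 znf genes and 8.25% of all genes passed there. These cells held more znf106b (4.06, on 9 UMIs, adjusted p = 0.0101) and less znf346 (-1.71), znf318 (-1.77) and znf207a (-1.55). Without TMM the differences of znf346 and znf207a were -0.82 and -0.69, and against cells matched in pseudotime they were -0.77 and -0.35, none of them called. Unlabelled znf706 was higher (1.115, adjusted p = 0.0423), and its total level was 656 CPM at dome and 430.3 CPM in 50% epiboly replicate A, against 271 and 82.8 CPM in the other cells. In germ cells 9.17% of znf UMIs were labelled at dome and 15.9% in 30% epiboly replicate A, and over all genes 7.24% and 18.1%. No znf gene passed in germ cells in any kind of UMIs (0 of 87 in total UMIs, where 0.414% of all genes passed). Germ cells were tested only at dome (26 cells) and in 30% epiboly replicate A (9 cells), so this absence is no sign of equal levels. There znf706 had 64 UMIs (596 CPM) at dome and 31 UMIs (729 CPM) in 30% epiboly replicate A, against 272 and 139 CPM in the other cells.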

How the data were processed

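The deposited table holds whole UMI counts per gene and cell, made by the authors with Drop-seq tools and Bowtie2 on base-converted genomes, with Ensembl gene names of an earlier release than the GRCz11 genome used for labelling, and GRCz11 in the processing notes. The deposited labelled fraction per gene and cell is the GRAND-SLAM estimate of the authors, and the deposited pseudotime score and cell types come from their URD analysis. No source used here mentions doublet removal, and no doublets were removed. The cell table has 8 further columns, which stayed unused. Injected RNAs (0.534% of UMIs) were left out.

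UMIs, and UMIs times labelled fraction (pairs with 1 or more UMIs, rounded for tests), were summed per library, and per library and type with 5 or more cells. These sums were tested in R 4.3.3 with edgeR 4.0.16 (TMM, filterByExpr, quasi-likelihood, Benjamini-Hochberg), after the code was tested on simulated data. Labelled and unlabelled sums used library sizes and TMM factors of the totals. Stage was the only term, library the block for cell types. The study calls the epiboly replicates biological and prepared them from separate embryo collections, by different dissociation procedures. The replicate number thus also marks the procedure, and the A minus B differences of both epiboly stages correlated at 0.14 over 12150 genes. In the replicate block dome counts as B, as its label says, although its cell names carry an A. All results with this block depend on that letter. Alternatives were DESeq2 1.42.0, limma 3.58.1 on log2(CPM + 1) and log2(CPM + 0.1), no filter, no TMM, pairs with 3 or more UMIs, 10 or more cells, pseudotime-matched cells, a replicate block and leaving out each library. No TMM for labelled and unlabelled stage sums, and subsets without the most abundant genes, were chosen after seeing the data. Members and lists were chosen with earlier results of these data known. Named were the 10 most abundant genes, up to 8 called per stage contrast and direction, the 5 highest and 5 lowest labelled shares, up to 6 called per cell type, role-list members, genes of the study's lists, genes at the 50-UMI limit and the 6 most abundant four-digit genes. Other zinc finger families in the closing section are named where called, and 1 further family is not reported here. Of the 104 gene IDs, 102 were in the reference name table, and without a genome no positions or sequences are given.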

Additional observations from a re-analysis of the deposited data

How the results depend on the processing

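Counts of znf genes called changed with the processing. For most other settings the share of all genes called is not given here, so these counts are no result about the znf genes. Directions were compared only for differences already called in the reported fits. The alternatives refit overlapping data, so a kept direction is no independent check. Of these refitted log2 differences, 681 kept direction and side of the threshold, 292 kept the direction only, and 1 turned. It was that of unlabelled znf576.2 in CellCycle_Dome cells, which was 0.32 against other cells matched in pseudotime and -0.94 against all other cells. In total UMIs the 1 call between 30% epiboly and dome became 2 with DESeq2, 3 with no filter and 2 with a replicate block (1 to 7 with each library left out), and the 4 calls between 50% epiboly and dome became 15 without TMM (3 higher, 12 lower) and 8 with no filter (3 to 18 with each library left out). Between 50% and 30% epiboly the count was 0 to 1 with each library left out. Labelled calls between 30% epiboly and dome, 0 as reported, were 4 with no filter, 16 with a replicate block and 3 to 30 with each library left out. Labelled calls between 50% epiboly and dome, 23 as reported, were 5 and 4 with limma on log2(CPM + 1) and log2(CPM + 0.1), 1 of 12 tested with pairs of 3 or more UMIs, 12 without TMM, 22 with a replicate block and 13 to 36 with each library left out. Unlabelled calls between 50% epiboly and dome, 8 as reported, were 0 with limma on log2(CPM + 0.1), 0 with pairs of 3 or more UMIs, 25 without TMM (2 higher, 23 lower), 5 with no filter and 0 to 11 with each library left out. The fits without TMM for labelled and unlabelled UMIs were chosen after seeing the data. In them the calls of all genes between 50% epiboly and dome moved as well. Of 7732 genes 1514 were higher and 16 lower in labelled UMIs. Of 11339 genes 241 were higher and 2420 lower in unlabelled UMIs. With the replicate block 8 of the 36 stage calls were lost, 1 in total (znf185, 1.54), 5 in labelled (znf292a, znf143b, znf346, znf1156 and znf740b) and 2 in unlabelled UMIs (znf703, 2.54, and znf750), and the other 28 were kept. For cell types, total calls (39) were 17 with DESeq2 and 16 to 54 with each library left out, labelled calls (17) were 9 against cells matched in pseudotime, 36 with no filter and 9 to 31 with each library left out, and unlabelled calls (20) were 11 against matched cells, 31 without TMM and 11 to 26 with each library left out. The labelled share of znf UMIs was 11.9%, 29.8%, 37.1% and 28.5% at dome, 30% epiboly B, 50% epiboly A and 50% epiboly B with pairs of 3 or more UMIs. With pairs of exactly 1 UMI it was 16.7%, 39.7% and 44.1% at dome, 30% epiboly B and 50% epiboly B. For either setting the libraries not named are left out here, so the values listed do not cover all 5. As a mean over genes it was 27.3%, 40.2%, 46.1%, 43.5% and 49.5% from dome to 50% epiboly B. The causes of these changes were not tested. No fold was given for znf750 without 50% epiboly replicate A, since it then lies at or under 3 UMIs in both stages. Depth limits most the 50% epiboly replicate B values and the 27 genes under 100 UMIs.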

Other observations

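Values of 3 other zinc finger families of the same table, with lists chosen by name, can be set beside these. The 20 klf and sp genes with 50 or more UMIs had a median labelled share of 51.4%, the 21 zbtb genes 28.5% and the 16 CCCH genes (zc3h, zfp36 and cth1) 20.5%, against 38.9% for the numbered znf genes. In total UMIs sp5a and sp5l, Wnt-responsive genes, were higher at 50% epiboly than at dome, as was zbtb7a, and zc3h6 was lower. In labelled UMIs 6 of 19 klf and sp genes were higher (klf17, sp5a, sp8b, klf11b, klf8 and sp5l), where 37.6% of all genes were. So were 5 of 13 zbtb genes (zbtb8os, zbtb33, zbtb10, zbtb8b and zbtb2b). The same held for 4 of 14 CCCH genes (cth1, zc3h15, zfp36l2 and zc3h14). Unlabelled UMIs of cth1, a CCCH protein gene of the maternal load, and of zc3h6 were lower at 50% epiboly, and those of sp5a, sp5l and zbtb7a were higher. For cth1 the portions thus went in opposite directions, labelled higher and unlabelled lower.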
